A study of Mus musculus with 6 samples.

Results

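A set of 40 genes of glucose handling was chosen by name from textbook pathways. This set, and the lists of other pathway genes and of markers used below, were chosen with earlier results of these data known. The set covers glucose and lactate transporters, glycolysis, the pyruvate dehydrogenase step, the pentose phosphate pathway, the polyol and fructose route, and glycogen and hexosamine synthesis. Of the 40 genes, 38 were found among the 12491 genes of the deposited table, all protein coding. Slc2a3 and Slc16a3 were not analysed here. The RNA came from lacrimal glands (LGs), the glands that secrete the watery part of the tear film, of male C57BL/6 mice. The T2DM group (3 libraries) had received a high fat diet and intraperitoneal streptozotocin (STZ), a toxin taken up by insulin-producing cells, and the vehicle group (3 libraries) had received a normal diet and buffer. The labels give an age of 24 weeks for both groups and name the same 24 weeks for the T2DM model, and the study's methods count 24 weeks from the last STZ injection. Diet and STZ differ together between the groups, so their parts cannot be told apart. The sources used here do not say how many mice stand behind a library, and a p-value therefore covers the variation among the 6 libraries alone, which may be technical.

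Glucose enters cells through carriers such as Slc2a1 and Slc2a4, is phosphorylated by hexokinases, and is then split and oxidised by glycolysis to pyruvate, which is either reduced to lactate or passed to mitochondria through the pyruvate dehydrogenase complex. Side branches take glucose 6-phosphate to NADPH and ribose (pentose phosphate pathway), to glycogen, or, from fructose 6-phosphate, to UDP-N-acetylglucosamine, the sugar donor for protein glycosylation. The polyol route reduces glucose to sorbitol and oxidises sorbitol to fructose, and it is known for its activity in tissues exposed to high glucose. A secretory gland such as the LG draws on these routes for the energy of fluid and protein secretion and for the sugars of its glycoproteins.

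Levels are FPKM, the fragments of a gene scaled to the length of its exons and to the mapped fragments of the library, as deposited. The table gives no fragment counts, so the depth behind a value is unknown. A fold change is the difference of mean log2(FPKM + 1), T2DM minus vehicle, which understates the change of genes at low levels. Its test was limma's moderated test over the 12135 genes that averaged 0.5 FPKM or more in T2DM or in vehicle LGs, with Benjamini-Hochberg adjustment over all of them, and a gene is called at an adjusted p under 0.05. Tissue was bulk, so fewer cells of a type and less RNA per cell cannot be told apart.

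Among the 38 genes, 10 were higher and 2 were lower in T2DM than in vehicle LGs, and 26 were not called. Over all genes tested, 10.5% were called higher and 1.7% lower. Every T2DM library lay above every vehicle library for 20 of the 38 genes, against 33.8% of all genes, and below every vehicle library for 3, against 6.1% of all genes. The median log2 fold change of the 38 was 0.27, against 0.16 for all genes tested, and 25 of the 38 lay above that median of all genes. When each library was scaled by its median of ratios to the other libraries, the median of all genes came to 0.004 and that of the 38 genes to 0.09. On that scale 5 were higher (Hk1, Aldoa, Aldoc, Eno1 and Pygb) and 3 were lower (Slc16a1, Gfpt1 and Hk2), where 3.93% of all genes were higher and 3.96% lower.

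**Figure D1:**
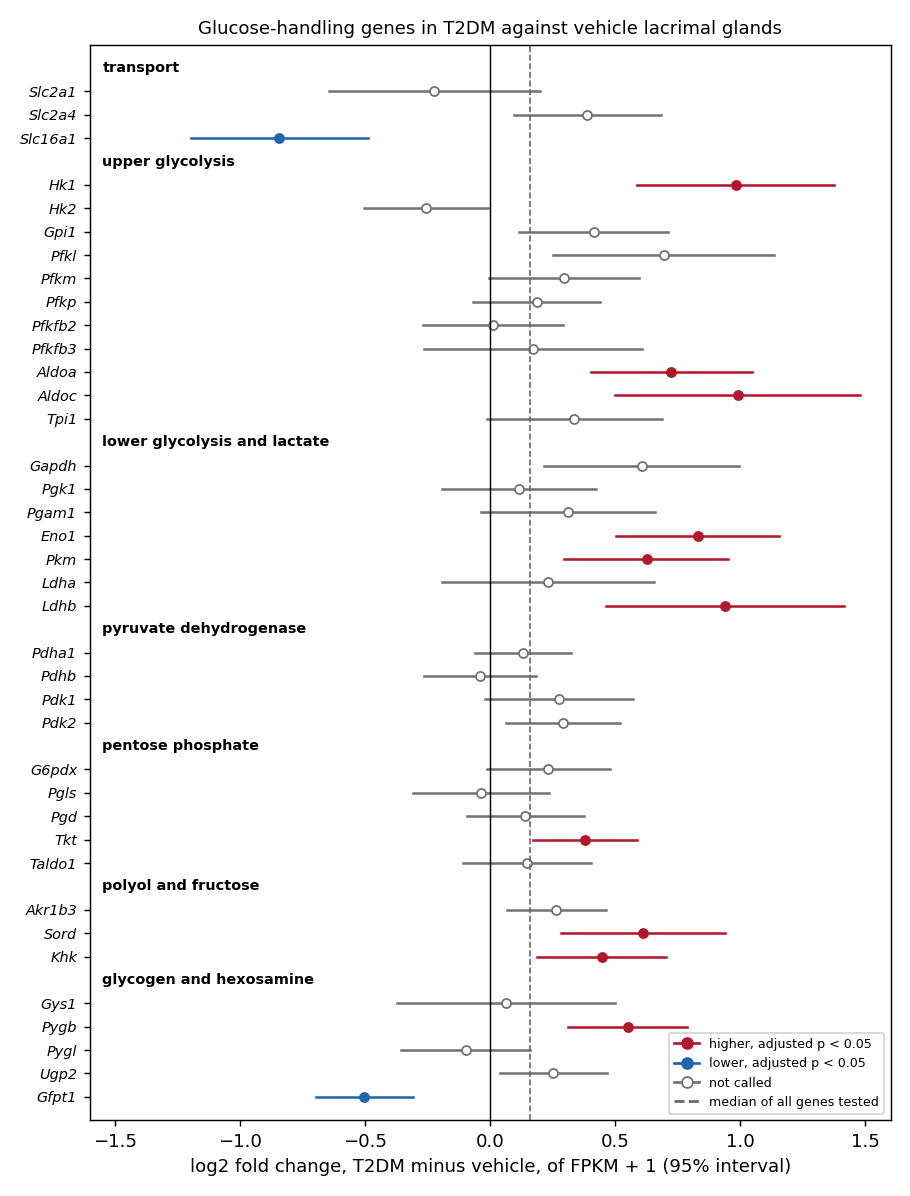
Log2 fold change of FPKM + 1, T2DM minus vehicle, with its 95% interval for each of the 38 genes, grouped by branch. Red points are the 10 genes called higher, blue points the 2 called lower, open points the 26 not called, and the dashed line is the median of all genes tested, 0.16; 31 points lie right of 0, and 25 do after median of ratios scaling.

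The libraries differed in ways that touch these values. The summed FPKM ran from 611638 to 693426 in T2DM and from 723455 to 838936 in vehicle libraries, and the 10 most abundant genes held 55.2 to 60.5% of it in T2DM and 59.4 to 63.8% in vehicle. T2DM replicate 1 was the highest of the 6 libraries for 29 of the 38 genes (76.3%), against 44.4% of all genes tested. Without that library 2 of the 38 were called higher (Hk1 and Eno1) and 1 lower (Gfpt1). Of all 12045 genes tested then, 260 were higher and 75 lower. Leaving out vehicle replicate 2 or vehicle replicate 3 left none called in limma, with 16 and 18 at an unadjusted p under 0.05. Over all genes tested, 257 of 12121 and 41 of 12116 were called in these settings. At an unadjusted p under 0.05 there were 3263 and 3060 of all genes. Vehicle replicate 1 held salivary gland transcripts, with 2292 FPKM summed over 7 marker genes, against at most 17.4 in any other library, and T2DM replicate 3 had the most of the muscle light chain Myl2, 4.48 FPKM. Without both of these libraries 4 of the 38 were called higher and 1 lower, against 468 and 93 of all 12134 genes tested. The LG's own acinar markers were high in all 6 libraries, at 4851 to 5252 FPKM summed over 6 genes in T2DM and 6063 to 6601 in vehicle LGs.

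Markers of several cell types differed between the groups, where 10.5% of all genes tested were called higher and 1.7% lower. Of 9 duct markers in the table, 6 were higher in T2DM (Kit, Wfdc2, Clu, Krt7, Krt18 and Slc12a2). Krt8, Krt19 and Elf5 were not called (adjusted p = 0.102, 0.0635 and 0.283, limma). The summed level of the 9 was 1137, 968.2 and 887.5 FPKM in T2DM and 637.9, 614.8 and 670.3 in vehicle LGs. Krt18 and Krt8 held most of each sum, at 521.2 and 329.1 FPKM in T2DM replicate 1. Of 5 myoepithelial markers 3 were higher, of 5 Schwann cell and nerve markers 2 were higher (Sox10 and Mbp), and of 4 B cell markers 2 were higher (Cd79a and Cd79b). Of 6 acinar markers 2 were lower (Lpo and Lcn11), and of 5 erythrocyte markers 3 were lower. The uncalled acinar markers were mixed. Pip and Bhlha15 averaged lower in T2DM and Aqp5 averaged higher, each with groups that overlapped. Chrm3 was above every vehicle library in all T2DM libraries, at 8.48, 5.86 and 7.16 FPKM against 5.43, 5.22 and 4.77 (adjusted p = 0.0822, limma). The summed level of myoepithelial markers was 166.1 to 199.1 FPKM in T2DM and 124.9 to 138.1 in vehicle LGs, and that of Schwann cell and nerve markers 23.9 to 35.0 in T2DM and 12.1 to 13.8 in vehicle LGs. B cell markers summed to 9.08 to 16.2 FPKM in T2DM and 3.99 to 5.56 in vehicle LGs, and erythrocyte markers to 196.4 to 316.9 in T2DM and 350.7 to 419.1 in vehicle LGs. None of these sums overlapped between groups. Among all genes tested, 33.8% were above every vehicle library in all T2DM libraries and 6.1% were below. Of 7 adipocyte markers 2 were in the table, summing to 1.69 to 3.42 FPKM in T2DM and 3.53 to 5.21 in vehicle LGs, and 1 of them, Plin4, was higher in T2DM (adjusted p = 0.0404, limma). No marker of endothelial cells, macrophages or T cells was called. The part of these cell types in the results below was not tested.

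The 4 promoter windows show the sequence context of the genes the results turn on: Gfpt1 and Slc16a1, the 2 lower genes, and Aldoc and Eno1, which had the largest fold change and the smallest p among the higher genes. Each runs from 250 bases before to 50 bases after a RefSeq start (build GRCm38.p6, plus strand), and where a gene has several starts the first is shown. Capitals mark ACGTG and GCGTG, read on either strand, so that CACGT and CACGC are the same words on the other strand. ACGTG lies inside CACGTG, the E-box, and overlaps with it are counted under both. The windows are chr6:87042596-87042895 for Gfpt1, chr3:104638414-104638713 for Slc16a1, chr11:78322823-78323122 for Aldoc and chr4:150236458-150236757 for Eno1.
Gfpt1: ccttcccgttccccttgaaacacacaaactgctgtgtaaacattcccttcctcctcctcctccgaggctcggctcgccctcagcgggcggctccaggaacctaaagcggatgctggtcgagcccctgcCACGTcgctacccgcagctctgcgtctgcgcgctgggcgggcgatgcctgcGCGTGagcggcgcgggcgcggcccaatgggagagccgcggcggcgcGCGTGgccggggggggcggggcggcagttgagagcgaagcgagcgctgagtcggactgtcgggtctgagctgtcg
Slc16a1: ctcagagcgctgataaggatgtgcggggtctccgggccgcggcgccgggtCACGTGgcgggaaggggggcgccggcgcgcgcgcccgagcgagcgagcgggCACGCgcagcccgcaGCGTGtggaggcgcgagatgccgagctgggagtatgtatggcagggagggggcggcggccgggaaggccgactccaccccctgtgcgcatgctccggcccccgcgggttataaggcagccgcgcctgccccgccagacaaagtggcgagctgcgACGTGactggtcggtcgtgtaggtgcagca
Aldoc: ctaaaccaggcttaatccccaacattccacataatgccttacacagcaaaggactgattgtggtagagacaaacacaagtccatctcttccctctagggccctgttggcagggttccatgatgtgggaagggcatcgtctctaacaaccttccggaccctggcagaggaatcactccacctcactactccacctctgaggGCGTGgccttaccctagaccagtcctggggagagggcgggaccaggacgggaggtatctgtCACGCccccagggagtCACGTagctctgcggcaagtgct
Eno1: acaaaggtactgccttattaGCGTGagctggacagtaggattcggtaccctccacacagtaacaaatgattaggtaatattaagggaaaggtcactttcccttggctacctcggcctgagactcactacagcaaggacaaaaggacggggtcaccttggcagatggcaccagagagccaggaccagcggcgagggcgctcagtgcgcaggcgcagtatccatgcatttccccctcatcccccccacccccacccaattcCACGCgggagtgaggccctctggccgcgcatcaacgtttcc

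ACGTG was found in 1 place in the Gfpt1 window, in 1 place in the Aldoc window and in none of the Eno1 window. The Slc16a1 window gave 3 matches, of which 2 are the readings of its 1 CACGTG on the 2 strands. GCGTG was found in 2 places in each of the 4 windows. Over 54 windows of 36 of the genes, 48.1% held ACGTG, 59.3% held GCGTG and 13.0% held CACGTG, against 19.6%, 32.4% and 7.15% of all 32851 windows of the table. The windows of the 36 genes had a median GC content of 61.2%, and all windows one of 52.7%. In the 17 windows of the 10 higher genes the shares were 41.2% for ACGTG, 52.9% for GCGTG and 5.88% for CACGTG. A match is a stretch of letters and not a bound site.

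Of the 3 transporters in the table, only the lactate carrier was called. Slc16a1 (chr3:104638668-104658462, GRCm38), the monocarboxylate transporter that moves lactate, pyruvate and ketone bodies with a proton, had 1.598, 1.72 and 2.13 FPKM in T2DM LGs, against 3.11, 4.23 and 4.93 FPKM in vehicle LGs. Each T2DM library was below each vehicle library. The log2 fold change was −0.84 ± 0.15 (SE) with an adjusted p of 0.0224 (limma), and −0.99 after median of ratios scaling. The call was lost without T2DM replicate 1, vehicle replicate 2 or vehicle replicate 3.

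The glucose carriers were both low. Slc2a1, the carrier of basal glucose uptake, had 3.73, 2.76 and 1.80 FPKM in T2DM and 3.33, 3.44 and 3.12 in vehicle LGs, and its groups overlapped (log2 fold change −0.22, adjusted p = 0.413, limma). Slc2a4, the insulin-responsive carrier, had 1.76, 1.80 and 1.31 FPKM in T2DM and 0.993, 0.802 and 1.21 in vehicle LGs. Its T2DM libraries were all above the vehicle ones, yet it was not called (log2 fold change 0.39, adjusted p = 0.0817, limma).

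Among the other transporters on a fixed list of pathway genes, 3 of 15 tested were higher and 1 was lower. The shares over all genes tested were 10.5% higher and 1.7% lower. Slc5a1, the sodium-coupled glucose carrier, had 7.50, 6.55 and 6.59 FPKM in T2DM and 4.77, 4.38 and 3.54 in vehicle LGs (log2 fold change 0.60, adjusted p = 0.0268, limma). Slc5a11, a sodium-coupled carrier of myo-inositol, had 1.39, 0.457 and 1.13 FPKM in T2DM against 0.143, 0.0917 and 0.0935 FPKM in vehicle LGs (log2 fold change 0.81, adjusted p = 0.0342, limma). Both were above every vehicle library in all 3 T2DM libraries. Slc37a3, of the sugar phosphate carrier family, was higher by 0.65 and Slc16a6, a monocarboxylate carrier, was lower with a log2 fold change of −0.79 (adjusted p = 0.0213 and 0.0162, limma). The 3 higher carriers were called after median of ratios scaling as well. None of them was called without T2DM replicate 1, without vehicle replicate 3, or without vehicle replicate 1 and T2DM replicate 3 together. Slc16a6 was not called without vehicle replicate 3.

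In upper glycolysis, of 11 genes from hexokinase to triose phosphate isomerase, 3 were higher, none was lower and the median log2 fold change was 0.34. The median of all genes tested was 0.16, with 10.5% of them called higher and 1.7% lower. Hk1 (chr10:62268855-62379908), the hexokinase of most tissues that commits glucose to metabolism, had 15.7, 9.92 and 11.2 FPKM in T2DM LGs and 6.28, 4.78 and 5.87 FPKM in vehicle LGs. The groups did not overlap. Its log2 fold change was 0.98 ± 0.17 (SE, adjusted p = 0.0211, limma) and its mean was 2.17 times the vehicle mean. The call was kept in 12 of 15 alternative settings, more than for any other of the 38 genes, and it was lost without vehicle replicate 2 or vehicle replicate 3.

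Hk2, the inducible hexokinase of insulin-responsive tissue, went the other way without a call on the deposited scale. It had 19.7, 16.6 and 16.3 FPKM in T2DM and 23.2, 20.0 and 20.1 FPKM in vehicle LGs, so that every T2DM library was below every vehicle library (log2 fold change −0.26, adjusted p = 0.141, limma). After median of ratios scaling its log2 fold change was −0.45 and its adjusted p was 0.0295 (limma). The next step, Gpi1, had an adjusted p of 0.072 (limma; log2 fold change 0.41).

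The aldolases were both higher. Aldoa (chr7:126795234-126800751), the muscle-type aldolase and the most abundant glycolytic gene here, had 74.9, 69.6 and 51.6 FPKM in T2DM against 40.1, 39.0 and 37.1 FPKM in vehicle LGs (log2 fold change 0.72 ± 0.14 SE, adjusted p = 0.0247, limma). Aldoc (chr11:78322968-78327781), the brain-type aldolase, had 2.83, 1.73 and 1.13 FPKM in T2DM and 0.611, 0.292 and 0.368 FPKM in vehicle LGs. No T2DM library of either gene reached down to the vehicle values, and T2DM replicate 3 was the lowest T2DM library for both. The log2 fold change of Aldoc was 0.99 ± 0.21 (SE, adjusted p = 0.0309, limma), and its mean was 4.48 times that of vehicle LGs. Both calls were lost when any 1 library other than T2DM replicate 3 was left out. Of 14 muscle markers listed, 3 were in the table, with a summed level of 16.1, 12.7 and 22.4 FPKM in T2DM and 6.13, 8.84 and 7.17 in vehicle LGs. Most of it was Mb, myoglobin, which was higher in T2DM (15.8, 11.9 and 16.8 FPKM in T2DM and 6.08, 8.66 and 7.14 in vehicle LGs, adjusted p = 0.0203, limma). Ckm had 0, 0.280 and 1.19 FPKM in T2DM and 0.0454, 0.179 and 0.0325 in vehicle LGs. Myl2 had 0.235, 0.438 and 4.48 FPKM in T2DM and 0 in each vehicle library. The part of muscle in the Aldoa values was not tested.

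The phosphofructokinases, which set the pace of glycolysis, were not called. Pfkl, the liver type, had 9.003, 5.10 and 5.12 FPKM in T2DM and 3.44, 3.56 and 3.36 in vehicle LGs, which just missed the threshold (log2 fold change 0.69, adjusted p = 0.0531, limma). Pfkm, the muscle type, averaged 8.98 ± 0.749 FPKM in T2DM and 7.18 ± 1.29 FPKM in vehicle LGs, and Pfkp, the platelet type, 1.08 ± 0.150 and 0.828 ± 0.114 (SD, n = 3 each). The regulators Pfkfb2 and Pfkfb3, which make and remove fructose 2,6-bisphosphate, had log2 fold changes of 0.01 and 0.17. Tpi1, which interconverts the triose phosphates, had groups that overlapped (0.34).

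The branch of lower glycolysis and lactate had the largest median, 0.61 over 7 genes, of which 3 were higher and none lower, and T2DM replicate 1 was the highest library for all 7. That library was the highest for 44.4% of all genes tested, of which 10.5% were called higher and 1.7% lower. Eno1 (chr4:150236721-150248879), the enolase of most tissues, had 28.2, 19.6 and 21.2 FPKM in T2DM LGs, against 12.4, 11.3 and 13.3 FPKM in vehicle LGs. The lowest T2DM library was above the highest vehicle library, and the log2 fold change was 0.83 ± 0.14 (SE, adjusted p = 0.0201, limma). The call was lost without vehicle replicate 2, without vehicle replicate 3, and without vehicle replicate 1 and T2DM replicate 3 together. A near-identical gene, Eno1b, was listed at 4.47 FPKM in T2DM replicate 1 and at 0 in the other 5 libraries, so reads could have been divided between the pair there.

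Pkm (chr9:59656368-59679375), pyruvate kinase, which makes pyruvate, had 47.2, 34.9 and 34.8 FPKM in T2DM and 22.2, 24.5 and 27.7 FPKM in vehicle LGs (log2 fold change 0.62 ± 0.14 SE, adjusted p = 0.0347, limma). Ldhb (chr6:142490249-142507957), the heart-type lactate dehydrogenase subunit, had 16.3, 13.5 and 9.56 FPKM in T2DM and 5.39, 5.50 and 8.02 FPKM in vehicle LGs (log2 fold change 0.94 ± 0.20 SE, adjusted p = 0.0321, limma). Neither gene's groups overlapped, but the call of each was lost after median of ratios scaling, with log2 fold changes of 0.43 and 0.76 there. Without T2DM replicate 1, T2DM replicate 2 or any vehicle library neither was called.

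The rest of the branch was not called. Gapdh, the dehydrogenase of the oxidative step, had 24.3, 17.4 and 16.4 FPKM in T2DM and 12.6, 10.2 and 14.0 in vehicle LGs (log2 fold change 0.61, adjusted p = 0.0553, limma), and 48 other genes of the reference, 45 of them pseudogenes, hold a stretch of its sequence. Pgk1, phosphoglycerate kinase, had 42.8, 32.3 and 30.55 FPKM in T2DM and 32.1, 30.2 and 33.9 in vehicle LGs, with groups that overlapped, the highest level of the branch over all 6 libraries together and a log2 fold change of 0.12 that turned to −0.08 after median of ratios scaling. Pgam1 (0.31) and Ldha, the muscle-type lactate dehydrogenase subunit (0.23), had groups that overlapped. None of 3 further genes tested in this branch was called.

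**Figure D2:**
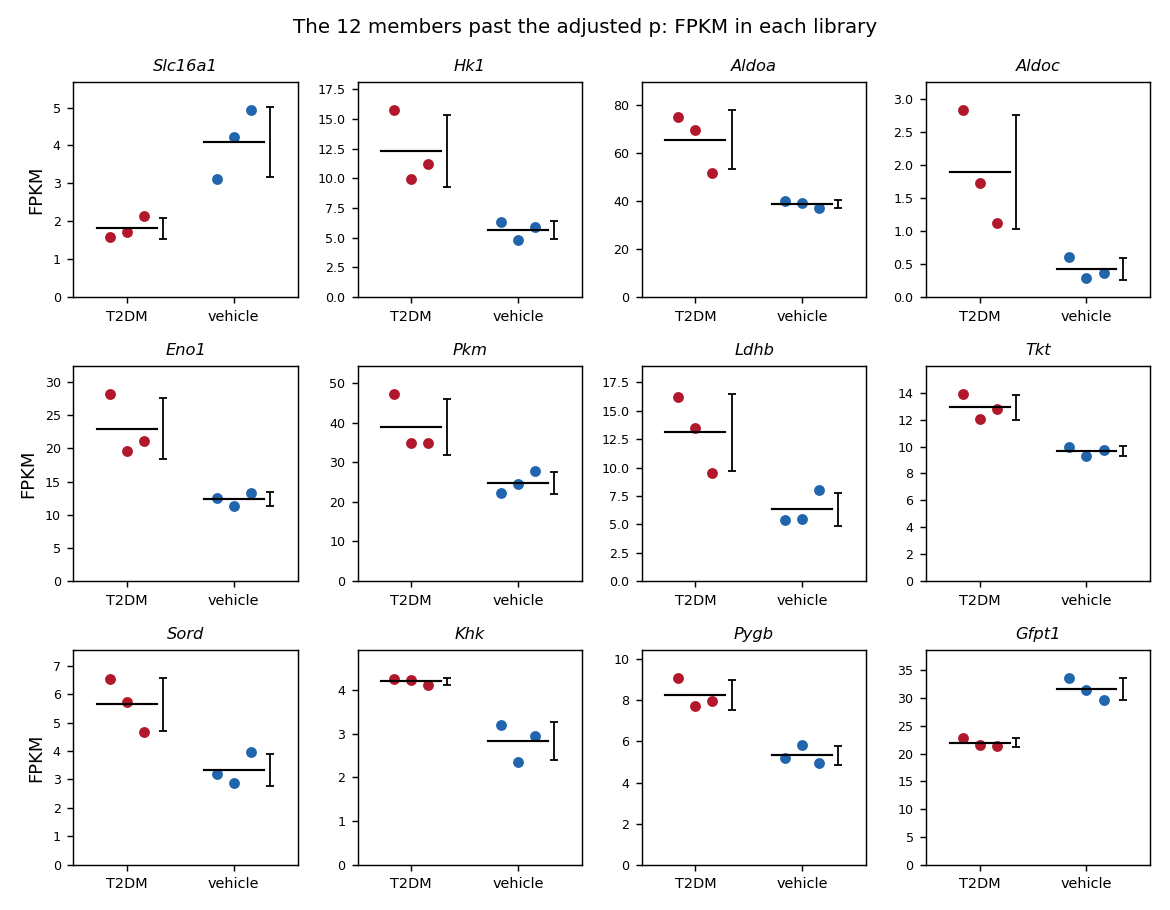
FPKM in each library of the 12 genes past the adjusted p, T2DM left of vehicle in each panel; points are libraries, horizontal lines are means and bars to their right are SD (n = 3 each). Slc16a1 and Gfpt1 sit lower in T2DM and the other 10 sit higher, with no overlap between groups in any panel. The genes were picked by the test on these same libraries, so this separation is no further support. Of all genes tested, 33.8% separated upward and 6.1% downward.

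Isoform shares within a library do not change when a library is rescaled, so 8 pairs were compared as shares of their summed FPKM. Hk1 made up 44.4, 37.3 and 40.7% of Hk1 plus Hk2 in T2DM LGs, against 21.3, 19.3 and 22.6% in vehicle LGs. The log2 ratio of Hk1 over Hk2 was 1.37 higher, and Hk2 was still the more abundant in all 6 libraries. Ldhb made up 26.1, 27.7 and 26.6% of Ldhb plus Ldha in T2DM and 16.1, 14.5 and 21.9% in vehicle LGs (log2 ratio 0.81 higher). Aldoc was a minor part of its pair with 2.74 ± 0.798% in T2DM and 1.07 ± 0.387% in vehicle LGs (SD, n = 3 each; log2 ratio 1.39 higher). With a pseudocount of 1 on both genes this difference was 0.27 (exact permutation p = 0.2).

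The shares of Pfkl in Pfkl plus Pfkm and of Pygb in Pygb plus Pygl were also above the vehicle values in all 3 T2DM libraries, at 40.9 ± 6.29% in T2DM and 32.8 ± 3.72% in vehicle LGs for Pfkl and 95.2 ± 1.4% in T2DM and 91.2 ± 2.1% in vehicle LGs for Pygb. In an exact permutation test (two-sided) these 5 pairs reached p = 0.1, the smallest that 3 against 3 libraries allow, and 0.16 after adjustment over the 8 pairs; with the pseudocount, 4 of them did, without Aldoc over Aldoa. The log2 ratio of Pfkl over Pfkm was 0.50 higher, but 0.29 without T2DM replicate 1, whose Pfkl share was 48.1%, against 36.3 and 38.3% in the other T2DM libraries and 28.5 to 35.2% in vehicle LGs. Sord over Akr1b3 had an exact p of 0.2, and its groups overlapped. Pfkp over Pfkm and Pdk2 over Pdk1 overlapped too, with log2 differences of 0.05 and −0.02.

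**Figure D3:**
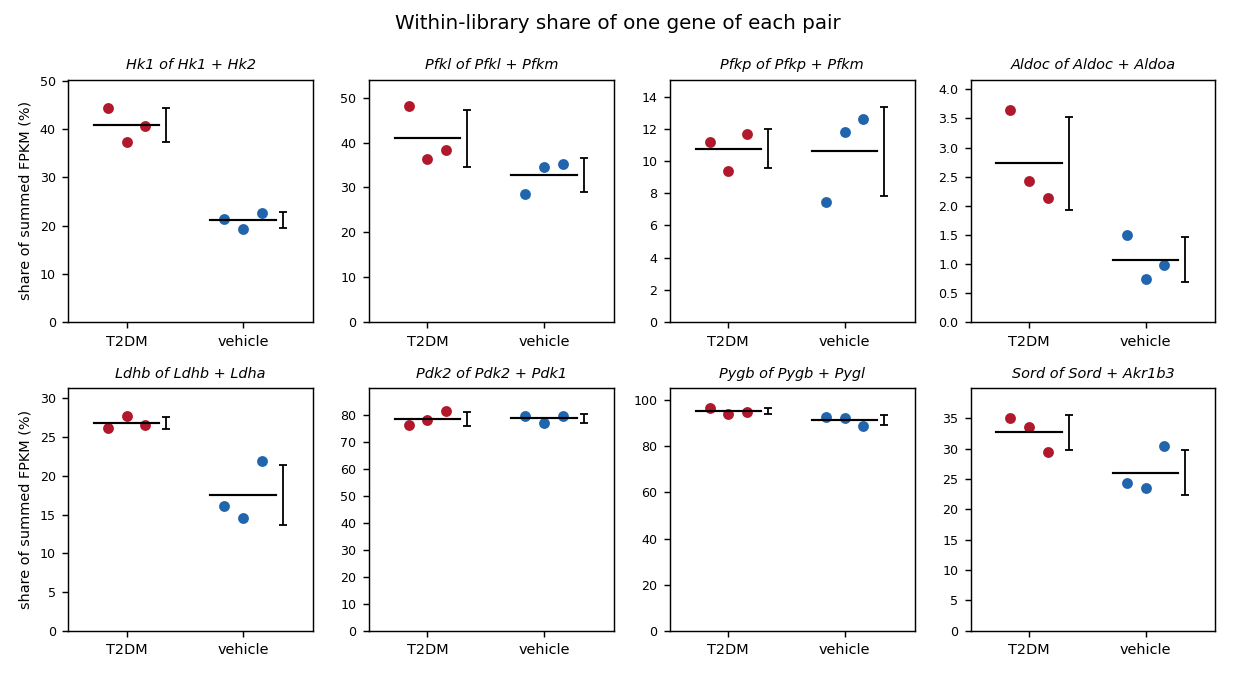
Share of the first gene in the summed FPKM of each of 8 pairs, in percent, by library, T2DM left of vehicle; lines are means and bars to their right SD (n = 3 each). The Hk1 share was 37.3 to 44.4% in T2DM LGs and 19.3 to 22.6% in vehicle LGs, the widest gap between group means among the 8 pairs.

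None of the 4 chosen genes of the pyruvate dehydrogenase step was called. Pdha1, the catalytic subunit, was the most abundant with 59.7, 61.0 and 60.3 FPKM in T2DM and 58.4, 50.9 and 55.9 FPKM in vehicle LGs (log2 fold change 0.13, adjusted p = 0.302, limma). Pdhb, its partner subunit, overlapped between groups (−0.04). Of the kinases that switch the complex off, Pdk2 had 25.5, 21.4 and 25.2 FPKM in T2DM and 20.6, 18.6 and 19.0 in vehicle LGs (log2 fold change 0.29, adjusted p = 0.087, limma), and Pdk1 averaged 6.59 ± 1.19 in T2DM and 5.23 ± 0.375 FPKM in vehicle LGs (SD, n = 3 each).

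Of 10 other genes tested at this step, 2 were called, in opposite directions, where 10.5% of all genes were called higher and 1.7% lower. Pdhx, which anchors the E3 subunit in the complex, had 9.72, 12.4 and 10.7 FPKM in T2DM and 19.6, 20.6 and 20.2 FPKM in vehicle LGs (log2 fold change −0.83, adjusted p = 0.0123, limma). Pdk4, the fasting-induced kinase, had 2.68, 2.08 and 1.82 FPKM in T2DM and 0.819, 1.11 and 1.06 FPKM in vehicle LGs (log2 fold change 0.67, adjusted p = 0.0257, limma). Both were past the threshold after median of ratios scaling too. Neither was called without vehicle replicate 3. Pdk4 was also not called without T2DM replicate 1, or without vehicle replicate 1 and T2DM replicate 3 together. Of the rest, Dld, the E3 subunit itself, was below all vehicle libraries in the 3 T2DM libraries at 24.9 to 27.7 FPKM, against 29.6 to 30.2 FPKM in vehicle LGs (log2 fold change −0.18, adjusted p = 0.151, limma). After median of ratios scaling Dld was called lower (−0.38, adjusted p = 0.0482, limma), as was Pdp2, a phosphatase that switches the complex on (−0.52, adjusted p = 0.045, limma). Dld, Pdp2 and, in the plot of this route, Dlat and Pdk3 are named after their values were seen.

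Of 5 genes of the pentose phosphate pathway, 1 was higher, where 10.5% of all genes tested were. Tkt (chr14:30548359-30574720), transketolase of the non-oxidative arm, had 13.9, 12.1 and 12.8 FPKM in T2DM and 9.99, 9.28 and 9.77 FPKM in vehicle LGs, and its groups did not overlap (log2 fold change 0.38 ± 0.09 SE, adjusted p = 0.0372, limma). The call was lost after median of ratios scaling (0.19) and whichever library was left out. Taldo1, transaldolase, the most abundant of the 38 genes, had 155.4, 138.3 and 132.4 FPKM in T2DM and 146.2, 120.9 and 118.2 FPKM in vehicle LGs, with groups that overlapped (log2 fold change 0.15, adjusted p = 0.378, limma).

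The oxidative arm, which makes NADPH, was not called. G6pdx, its first enzyme, averaged 23.6 ± 2.87 FPKM in T2DM and 19.8 ± 1.04 in vehicle LGs (SD, n = 3 each). Pgls and Pgd had log2 fold changes of −0.04 and 0.14. None of 6 further pentose phosphate genes passed the threshold.

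All 3 genes of the polyol and fructose route were above every vehicle library in every T2DM library, as were 33.8% of all genes tested. Of the 3, 2 were called higher, where 10.5% of all genes were. Akr1b3, aldose reductase, which makes sorbitol from glucose, had 12.1, 11.3 and 11.2 FPKM in T2DM and 9.97, 9.30 and 9.07 FPKM in vehicle LGs (log2 fold change 0.26, adjusted p = 0.079, limma). Sord (chr2:122234749-122265340), which turns sorbitol into fructose, had 6.52, 5.72 and 4.67 FPKM in T2DM and 3.20, 2.86 and 3.95 FPKM in vehicle LGs (log2 fold change 0.61 ± 0.14 SE, adjusted p = 0.0365, limma). Khk (chr5:30921431-30931248), which phosphorylates fructose, had 4.25, 4.23 and 4.11 FPKM in T2DM and 3.20, 2.35 and 2.96 FPKM in vehicle LGs (log2 fold change 0.45 ± 0.11 SE, adjusted p = 0.0421, limma).

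Both calls were lost after median of ratios scaling, with log2 fold changes of 0.45 for Sord and 0.29 for Khk and adjusted p of 0.088 and 0.146 (limma), and the log2 fold change of Akr1b3 was then 0.08 (adjusted p = 0.527, limma). The Khk call was lost whichever library was left out, and that of Sord under every such omission but T2DM replicate 3. Of 4 further genes tested, Akr1a1, aldehyde reductase, was higher at 86.1, 81.6 and 71.7 FPKM in T2DM and 61.4, 60.9 and 60.5 FPKM in vehicle LGs (log2 fold change 0.38, adjusted p = 0.0385, limma), and its call was lost after median of ratios scaling as well.

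Of 5 genes of glycogen and hexosamine metabolism, 1 was higher and 1 was lower, against 10.5% higher and 1.7% lower of all genes tested. Pygb (chr2:150786735-150831758), the brain-type glycogen phosphorylase, which releases glucose 1-phosphate, had 9.08, 7.71 and 7.97 FPKM in T2DM and 5.204, 5.82 and 4.94 FPKM in vehicle LGs (log2 fold change 0.55 ± 0.10 SE, adjusted p = 0.0238, limma). Its groups did not overlap, and its call was lost without T2DM replicate 1 or any 1 vehicle library. Pygl, the liver-type phosphorylase, was the lowest of the 38 genes at 0.410 ± 0.0951 FPKM in T2DM and 0.510 ± 0.108 in vehicle LGs (SD, n = 3 each). Gys1, glycogen synthase, and Ugp2, which makes UDP-glucose, were not called (log2 fold changes 0.06 and 0.25).

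Of 29 further genes of glycogen, galactose and hexosamine metabolism, 3 were higher and 2 lower. Over all genes tested, 10.5% were called higher and 1.7% lower. The higher ones were Gaa, the lysosomal glucosidase that breaks down glycogen (log2 fold change 0.61), Ppp1r3b, which brings a phosphatase to glycogen (0.49), and Galk1, galactokinase (0.44), with adjusted p of 0.0404, 0.0352 and 0.0477 (limma). None of the 3 was called after median of ratios scaling.

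Gfpt1 (chr6:87042846-87092197), the first and pace-setting enzyme of the hexosamine route, had 22.9, 21.6 and 21.5 FPKM in T2DM LGs, against 33.6, 31.4 and 29.7 FPKM in vehicle LGs. The highest T2DM library was well below the lowest vehicle library, and the log2 fold change was −0.50 ± 0.08 (SE, adjusted p = 0.0196, limma), the smallest adjusted p of the 38 genes. After median of ratios scaling it was −0.70 (adjusted p = 0.00732, limma). The call was lost without vehicle replicate 2, without vehicle replicate 3, and without vehicle replicate 1 and T2DM replicate 3 together.

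A later enzyme of that route was lower as well. Gnpnat1, which acetylates glucosamine 6-phosphate, had 4.44, 5.71 and 4.62 FPKM in T2DM and 8.34, 7.08 and 7.90 FPKM in vehicle LGs (log2 fold change −0.57, adjusted p = 0.0272, limma). Its groups did not overlap, and it was not called without vehicle replicate 3. The 2 other enzymes of the route in the plot, Pgm3 and Uap1, were chosen after their values were seen and were not called (log2 fold changes −0.28 and −0.13, adjusted p = 0.117 and 0.453, limma). After median of ratios scaling Pgm3 was called lower (−0.46, adjusted p = 0.0337, limma) and Uap1 was not.

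**Figure D4:**
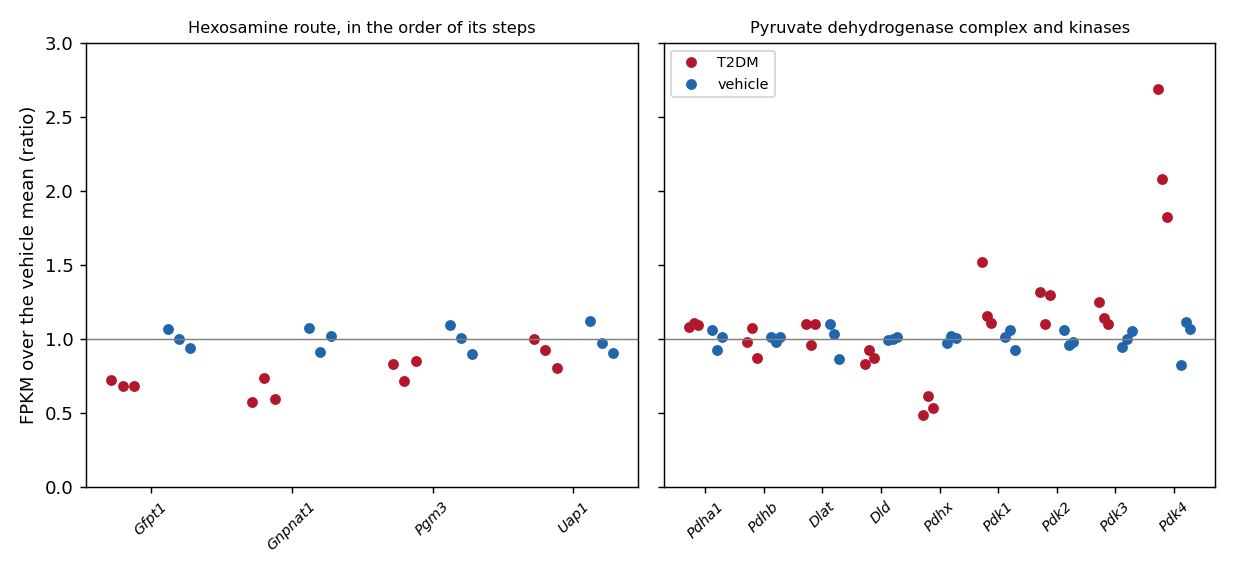
FPKM of each library divided by the vehicle mean of the gene, for the hexosamine route (left) and the pyruvate dehydrogenase complex and its kinases (right), T2DM points left of vehicle points and the line at a ratio of 1. T2DM points of Gfpt1, Gnpnat1 and Pdhx lie below the vehicle points, and those of Pdk4 lie above them.

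Over the whole fixed list of 102 other pathway genes, 76 were in the table and 74 were tested, of which 8 were higher and 4 lower with a median log2 fold change of 0.14. Of all genes tested, 10.5% were higher and 1.7% lower. After median of ratios scaling 4 of the 74 were higher and 8 lower, and their median was −0.02. On that scale 3.93% of all genes were higher and 3.96% lower. Without vehicle replicate 2, 1 gene of the list was higher and 2 were lower, against 203 and 54 of all 12121 genes tested. The 38 chosen genes and these 74 share the libraries and so the shift of 0.16 in the median of all genes.

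**Figure D5:**
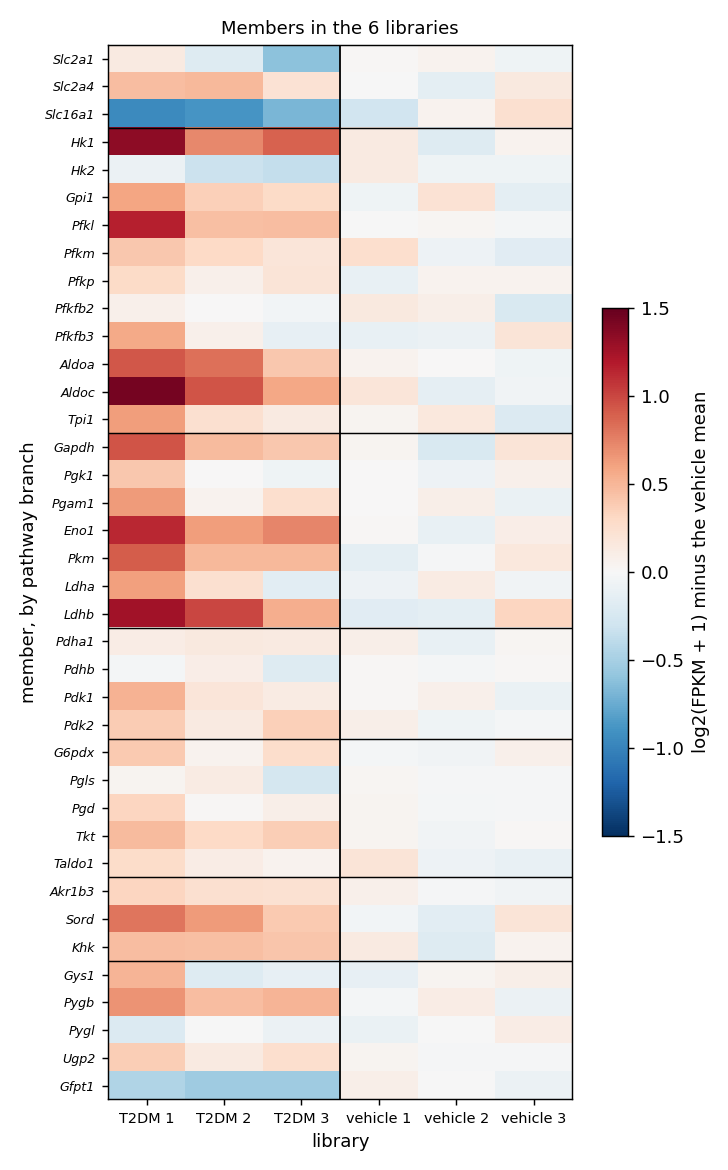
Log2(FPKM + 1) minus the vehicle mean for the 38 genes (rows, by branch) in the 6 libraries (columns, T2DM left of vehicle; red above and blue below the vehicle mean). T2DM replicate 1 is the reddest column, being the highest library for 29 of the 38 genes, and Slc16a1 and Gfpt1 are blue in all 3 T2DM libraries.

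Counting may blur genes with near-identical copies. By alignment to the reference transcripts, 11 of the 38 genes share at least 200 bases at 97% identity or more with another gene, among them the called genes Eno1, Ldhb, Pkm and Sord, and 27 do not, among them Hk1, Aldoa, Aldoc, Tkt, Khk, Pygb, Slc16a1 and Gfpt1.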

How the data were processed

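The samples were 3 T2DM and 3 vehicle lacrimal gland libraries of poly(A) RNA, made with a stranded kit. Per the study's methods, the authors removed adapters (cutadapt), mapped reads on GRCm38 (HISAT2), estimated abundances with StringTie and deposited gene-level FPKM computed with Ballgown. The submitters' processing notes name FastQC, HISAT2, StringTie and the build hg19 (GRCh37); 11420 of the 12491 genes, and 36 of the 38 members, have the start and end of the GRCm38 annotation GENCODE M21. No fragment counts were used, so depth could not be stated. FPKM divides by the mapped fragments of a library, so a few abundant genes can shift the values of all others. Their part in the values here was not tested.

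The members, branches, marker lists and other pathway genes were chosen with earlier results of these data known. log2(FPKM + 1) was fitted with limma 3.58.1 (R 4.3.3), two-sided, with a mean-variance trend and Benjamini-Hochberg adjustment. Genes averaging 0.5 FPKM or more in either group were tested. The fit was also run on simulated data without a shift over all genes and without a deviating library, so that run covers neither. Isoform ratios used log2 of FPKM without a pseudocount and an exact permutation test (SciPy 1.17.1). The ratio of Slc16a3 over Slc16a1 was planned and not analysed. Copies were sought with BLAST 2.17.0. Genes named in full were those called and, per branch, the member of smallest p and the most abundant one; other pathway genes were named where called, except 1 that is counted but not reported here. Per-library values of the uncalled members Slc2a1, Slc2a4, Hk2, Pfkl and Gapdh were added after their values were seen. Alternatives were a pseudocount of 0.1, no filter or a filter at 2 FPKM, median of ratios scaling, rescaling without the 10 most abundant genes, limma without a trend, a linear model without moderation, a replicate block and omission of libraries.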

Additional observations from a re-analysis of the deposited data

How the results depend on the processing

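Over 15 alternative settings, 456 of the members' values kept their direction and side of the threshold, 80 lost the call, 11 gained one and 17 changed sign, and no called member changed sign. The numbers called higher and lower among the 38 members, 10 and 2, became 5 and 3 after median of ratios scaling, 18 and 2 after rescaling without the 10 most abundant genes, and 4 and 1 without vehicle replicate 1 and T2DM replicate 3. The linear model without moderation called 0 and 0, with 19 members, 26 other pathway genes and 3448 of all genes at an unadjusted p under 0.05, where limma had 20 members. Other pathway genes, 8 and 4, became 4 and 8 after median of ratios scaling, 21 higher after rescaling without the 10 most abundant genes, 0 and 0 with the linear model, and 0 and 2 without vehicle replicate 1 and T2DM replicate 3 (24 at an unadjusted p under 0.05 in limma). All genes, 1271 and 206, became 477 and 481, 3345 higher, 0 and 0, and 468 and 93 in the same order of settings. With single libraries left out, members called higher ranged from 0 to 8 and lower from 0 to 2, other pathway genes from 0 to 7 and 0 to 4, and all genes from 25 to 886 and 16 to 130. Members called numbered 2 and 1 without T2DM replicate 1, 3 and 2 without T2DM replicate 2, 2 and 2 without vehicle replicate 1, and 0 and 0 without vehicle replicate 2 or vehicle replicate 3. Other pathway genes called numbered 0 and 2 without T2DM replicate 1 (14 higher at an unadjusted p under 0.05) and 0 and 0 without vehicle replicate 3 (17 and 7). The causes were not tested.

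The deviations of same-numbered libraries correlated at 0.03, 0.02 and 0. These values do not show whether same-numbered libraries shared a preparation, and no conclusion is drawn from the block. With the replicate block, 4 members were higher and 2 lower, 3 other pathway genes were higher, and 551 genes were higher and 98 lower over all genes.

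Sign changes were all in uncalled values. After median of ratios scaling Pfkfb2 came to −0.16, Pgk1 to −0.08, Pdha1 to −0.07, Pgd to −0.05, Taldo1 to −0.05 and Gys1 to −0.09. Without T2DM replicate 1, Pfkfb2 came to −0.02, Pfkfb3 to −0.03, Pgk1 to −0.03 and Gys1 to −0.16, and without vehicle replicate 3 Pfkfb2 came to −0.10. Over all omissions of libraries the values ran to 0.12 for Pfkfb2, 0.32 for Pfkfb3, 0.21 for Pgk1 and 0.19 for Gys1. Pdhb and Pgls came to 0.08 and 0.08 after rescaling without the 10 most abundant genes, to 0.04 and 0.10 without vehicle replicate 1 and T2DM replicate 3, and to 0.04 and 0.08 without T2DM replicate 3. The log2 ratio of Aldoc over Aldoa, 1.39, came to 0.27 with a pseudocount of 1. That of Pfkp over Pfkm, 0.05, came to −0.11 with a pseudocount of 1, to −0.28 without vehicle replicate 1 and T2DM replicate 3, and to between −0.21 and 0.21 with single libraries left out. That of Pdk2 over Pdk1, −0.02, came to 0.02 with a pseudocount of 1 and to between −0.14 and 0.08 with single libraries left out.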
